A study of Mus musculus with 58 samples.

Results

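The mouse genome carries many copies of ribosomal protein mRNAs, and 97 of them were read here in the striatum. They are the genes whose symbol starts with Rpl or Rps and contains -ps, selected on having 10 or more counts in at least 4 of 32 RNA-seq libraries. The tables held 300 such symbols among 54532 gene identifiers. Of the 300, 203 stayed below the count rule and 46 of those had no count in any library. The rule used the counts themselves, whatever the group, so the presence of the 97 is a description and not a finding. Just inside the rule, 2 pseudogenes reached 10 counts in exactly 4 libraries, and just outside it 7 reached them in exactly 3, among them Rps12-ps1 (1 to 16 counts) and Rpl10-ps6 (0 to 12 counts). Of the 97, 55 are copies of large-subunit (Rpl) genes and 42 of small-subunit (Rps) genes, and together they point to 49 parent genes, all of which were measured.

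The striatum of 2 mouse lines was sequenced, with 4 libraries for each line, genotype and sex. In the 3g line, del/+ mice carry a hemi-deletion of Taok2, Sez6l2 and Mvp, made with CRISPR/Cas9 in C57BL/6J zygotes. It was designed to place a premature stop codon in each gene. In the 16p11.2 line, del/+ mice carry a single copy of the mouse region that corresponds to human 16p11.2. Each line had its own wt littermates of 10 to 14 weeks, and all samples were labelled B6129S in strain. The deletions are constitutive in both lines. A further 26 libraries hold ribosome footprints and the RNA of the same lysates from males of both lines.

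Ribosomal protein pseudogenes are mostly processed copies, made when a spliced mRNA was reverse transcribed and inserted elsewhere in the genome. They lack the introns and usually the promoter of the parent, and most are not known to encode a protein. Ribosomal proteins are needed in every cell and their mRNAs are abundant, and their copies are close in sequence to the parent, so a short read can match the parent and its copies equally well.

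Total counts ran from 11711099 to 65529807 in the 3g libraries and from 26592767 to 41300015 in the 16p11.2 libraries. Taok2 lay between 83.2 and 94.9 CPM (counts scaled to library size) in 16p11.2 del/+ libraries and between 153 and 196 in their wt. In the 3g line Sez6l2 lay between 189 and 225 CPM in del/+ and between 274 and 336 in wt libraries. Taok2 did not separate the 3g genotypes, with 156 to 197 CPM in del/+ and 176 to 182 in wt libraries. Mvp had 5.17 to 7.45 CPM in 3g del/+ and up to 8.84 in 3g wt libraries, with ranges that overlapped. Some libraries stood apart. Each library was placed on a scale set by wt females alone, with 0 at their average 3g and 1 at their average 16p11.2 profile. The scale used 11342 genes other than the pseudogenes, chosen because they differed between lines in those same females. The wt female positions were thus centered on 0 and 1 in advance, and only the other libraries were placed freely. The 3g libraries ranged from -0.08 to 0.17 except wt male 17, at 0.85, and the 16p11.2 libraries from 0.82 to 1.25 except del/+ male 4, at 0.21. In the 16p11.2 line, the library labelled as del/+ female 1 held 0.46 CPM of Xist and 38.5 CPM of the Y-linked gene Ddx3y. The fewest counts were those of 3g del/+ male 25. All 8 spiny neuron markers were above 0 in every library. The summed CPM of 4 oligodendrocyte markers was 3090 to 8469 in the 3g and 4319 to 11325 in the 16p11.2 libraries, and that of 4 cortical neuron markers 33.1 to 865 and 715 to 1267, all 8 above 0 everywhere. These ranges include 3g wt male 17 and 16p11.2 del/+ male 4. Without them the oligodendrocyte marker Mbp had 1849 to 3490 CPM in the 3g and 4456 to 7599 CPM in the 16p11.2 libraries. The part of these cells in the differences between lines was not tested, and in bulk tissue fewer cells of a type cannot be told apart from less RNA per cell.

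Most of the pseudogenes were read at low levels. The median library gave a pseudogene 0.36 CPM in the middle of the list, 59 of the 97 had a median under 0.5 CPM, and 11 had 2 CPM or more. Only 23 had 10 counts in all 32 libraries. The 6 with the highest median CPM were Rpl3-ps1 (19.5), Rps13-ps1 (5.93), Rpl31-ps8 (4.16), Rpl9-ps6 (3.45), Rpl10a-ps1 (3.16) and Rpl19-ps11 (2.82), and these 6 held 44.0% of the summed pseudogene CPM in the median library. Rpl3-ps1 alone held from 4.38% to 32.9% of it.

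The first 3 kept their order when the levels were set per length, with the gene spans in RefSeq for GRCm38.p6. Rpl3-ps1 then had a median level of 14.8 CPM per kb, Rps13-ps1 11.4, Rpl31-ps8 8.40 and Rpl38-ps2 7.69, against 0.60 for the middle of the list. Rpl3-ps1 is a copy of the gene for a large-subunit protein near the catalytic center of the ribosome. It lies on chromosome X at 13202518 to 13203837 (mm10), where RefSeq annotates no other gene over it. Rps13-ps1, a copy of the gene for the small-subunit protein Rps13, lies on chromosome 8 at 87047694 to 87048215, also with no other gene over it.

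RefSeq lists 89 of the 97 as pseudogenes, 6 as transcribed pseudogenes and 2 as protein coding, Rpl34-ps1 and Rpl31-ps12. The 6 transcribed pseudogenes had median levels from 0.29 CPM for Rps15a-ps4 to 1.86 CPM for Rps19-ps3, with 4 of the 6 at 1 CPM or more against 17 of all 97, and the 2 protein coding genes had 0.87 and 0.27 CPM. The 97 are spread over 19 chromosomes, 9 of them on X, and only 3 share a chromosome with their parent. The largest families were those of Rpl31 with 7 members, and of Rps15a and Rpsa with 6 each.

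The pseudogenes were higher in the 16p11.2 line than in the 3g line, and their parents were too. The summed CPM of the 97 lay between 109 and 167 in 15 of the 16p11.2 libraries and between 64.0 and 82.2 in 14 of the 3g libraries. The 3 remaining libraries lay elsewhere: 3g wt male 17 had 103, 3g del/+ male 25 had 113, and 16p11.2 del/+ male 4 had 68.8. The summed CPM of the 49 parents lay between 7758 and 12255 in the same 15 libraries of the 16p11.2 line and between 5613 and 6346 in 15 of the 3g line, with 10382 in 3g wt male 17 and 5381 in 16p11.2 del/+ male 4. Of these libraries 3g del/+ male 25 alone was high for the pseudogenes and not for the parents, at 5697 CPM.

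**Figure D1:**
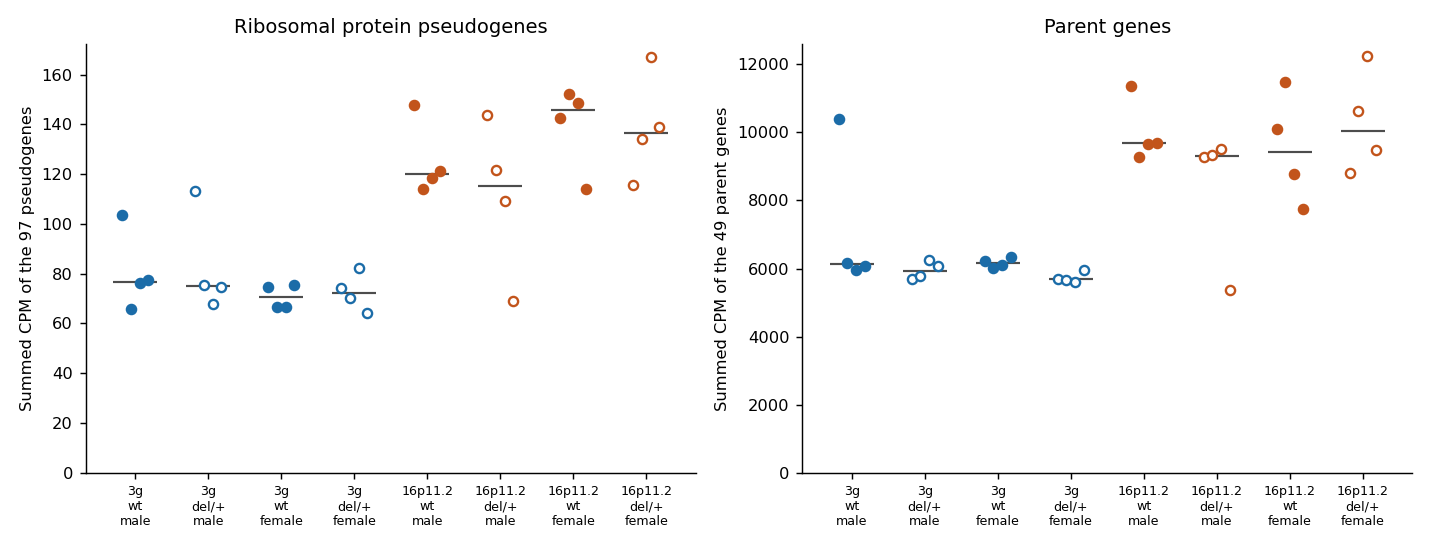
Summed CPM of the 97 ribosomal protein pseudogenes (left) and of their 49 parent genes (right) in each of the 32 striatal RNA-seq libraries, by line, genotype and sex. Filled points are wt and open points del/+, blue is the 3g and orange the 16p11.2 line, and bars are medians of 4 libraries. In both panels 3g wt male 17 (103 and 10382 CPM) lies above the rest of its group and 16p11.2 del/+ male 4 (68.8 and 5381 CPM) below, while 3g del/+ male 25 (113 CPM) is high only on the left.

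In wt females, where the comparison of lines holds none of those 3 libraries, 43 of 68 pseudogenes that passed the filter on low counts were called higher in the 16p11.2 line and 0 lower. A gene was called at an adjusted p under 0.05, from the quasi-likelihood test of edgeR with p-values adjusted over all genes tested (Benjamini-Hochberg). Of all 19013 genes 59.9% were called, a share near that of the pseudogenes. Those called higher made up 29.8% of all genes, so calls over all genes were about evenly split by direction, with 5660 higher and 5725 lower. The median log2 fold change was 0.84 over the 68 pseudogenes, 0.62 over the 79 cytosolic ribosomal protein genes, of which 74 were called higher and 1 lower, and -0.01 over all genes. Among 101 tested genes of other families with -ps in the symbol, 29 were called higher and 17 lower, with a median of 0.22. The 2 lines were not sequenced as littermates of each other, and line cannot be told apart from anything else that differed between the sets of libraries.

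In del/+ females 42 of 66 tested pseudogenes were called higher in the 16p11.2 line and 0 lower, where 56.3% of all genes were called and 28.7% were called higher. The median was 0.92 over the pseudogenes and 0.85 over the 79 ribosomal protein genes. Of 61 pseudogenes tested in both female comparisons, which share no library, 30 were called in both, or 69.8% of those called in wt and 71.4% of those called in del/+ females. Without the filter, 86 of the 97 had a positive log2 fold change in wt females and 89 in del/+ females. Over all 16 libraries a line, 89 of the 97 had the higher median CPM in the 16p11.2 line and the median ratio of line medians was 1.78. The count rule itself favors the line where a pseudogene is high, since 17 of the 97 met it only within the 16p11.2 libraries and 5 only within the 3g libraries. Among the 73 that met it within each line, 68 had the higher median in the 16p11.2 line and the median ratio was also 1.78.

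The largest difference in wt females was that of Rps15a-ps8, a copy of a small-subunit gene on chromosome 4, with 0.54, 0.60, 0.63 and 0.65 CPM in the 3g and 2.99, 3.19, 3.61 and 4.21 CPM in the 16p11.2 libraries. The groups did not overlap and the log2 fold change was 2.51 ± 0.16 (SE, adjusted p = 5.7e-06, edgeR). Rps15a-ps6, inside Nudcd3 on chromosome 11, had 0.78 to 1.11 CPM in the 3g and 3.23 to 3.93 CPM in the 16p11.2 libraries, a log2 fold change of 1.79. Rps13-ps1 had 5.50 to 5.57 CPM against 13.02 to 22.1 CPM, a log2 fold change of 1.68. Rps18-ps3 and Rpl31-ps14, both under 0.5 CPM in every wt female, had log2 fold changes of 1.82 and 1.74. They passed the filter on low counts only through the 16p11.2 libraries, with 1 to 8 and 3 to 9 counts in the 3g wt females, so that they had to differ. Of the 51 tested pseudogenes with 10 counts in every 3g wt female, 37 were called, all higher. Groups that did not overlap were part of the choice of these 5, and over all genes 55.2% had such groups.

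In del/+ females the largest was Rps15-ps2, a copy of another small-subunit gene, at 0.31 to 0.46 CPM in the 3g and 1.04 to 1.498 CPM in the 16p11.2 libraries (log2 fold change 1.72 ± 0.23, SE, adjusted p = 1.1e-04, edgeR). It was followed by Rps13-ps2 (1.68), Rpl36a-ps2 (1.65), Rpl39-ps (1.44) and Rpl21-ps8 (1.35), the largest among those called with groups that did not overlap, as 52.6% of all genes had. Rps13-ps2 had 8 to 22 and Rpl21-ps8 5 to 12 counts in the 3g del/+ females. Both needed 16p11.2 libraries to pass the filter on low counts, which favors pseudogenes that are high there. Of the 35 tested pseudogenes with 10 counts in every 3g del/+ female, 25 were called, all higher. Of the 31 with fewer in some of these libraries, 17 were called, all higher. In wt females the log2 fold change of Rps13-ps2 was -0.43 (adjusted p = 0.558, edgeR). Rpl36a-ps2 went from 0.51 ± 0.13 to 1.62 ± 0.32 CPM and Rpl39-ps from 0.65 ± 0.16 to 1.77 ± 0.35 CPM (SD, n = 4 each).

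The abundant members moved in the same direction in both. Rpl9-ps6 was 1.35 ± 0.24 CPM in 3g wt and 4.25 ± 0.68 CPM in 16p11.2 wt females, and 2.09 ± 0.47 against 5.17 ± 1.38 CPM in del/+ females (SD, n = 4 each), with log2 fold changes of 1.62 and 1.31. Rpl31-ps8 rose by 1.29 and 1.21, Rpl10a-ps1 by 1.06 and 1.08, and Rpl19-ps11 by 0.85 and 0.83 on the log2 scale. Rpl3-ps1 rose by 0.66 and 0.91. By subunit, 22 of 37 large-subunit and 21 of 31 small-subunit copies were called in wt females, and 26 of 36 and 16 of 30 in del/+ females, a difference that was not tested.

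In males the comparison of lines turned on single libraries. Of 73 pseudogenes tested in wt males, edgeR called 0, where 0.0162% of all genes were called, and 39 had an unadjusted p under 0.05, as did 36.1% of all genes. The median log2 fold change was 0.75. DESeq2, over all 97, called 25, all higher, where it called 9.95% of all genes and 3.61% higher. Without 3g wt male 17, 44 of 78 were called higher and 1 lower, where 23.5% of all genes were called higher. In del/+ males 4 of 60 were called, all higher, with 15% of all genes called: Rps26-ps1 (log2 fold change 1.16), Rps10-ps2 (1.12), Rpsa-ps9 (1.11) and Rpsa-ps10 (0.90). Without 16p11.2 del/+ male 4, 26 of 67 were called, all higher, where 24.3% of all genes were called higher. Without any other single library of that comparison the count was 0.

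The 4 called in del/+ males were small-subunit copies. Rps10-ps2 had 0.35 to 0.56 CPM in 3g del/+ and 0.68 to 1.26 CPM in 16p11.2 del/+ males, Rps26-ps1 0.20 to 0.44 against 0.61 to 0.88 CPM, and Rpsa-ps9 0.20 to 0.41 against 0.45 to 0.77 CPM. These 3 were named for groups that did not overlap, as 18.9% of all genes had in this comparison. In the 3g del/+ males Rps26-ps1 had 4 to 18 and Rpsa-ps9 5 to 14 counts. Both needed 16p11.2 libraries to pass the filter on low counts, which favors pseudogenes that are high there. Rpsa-ps10 overlapped between the lines and was named after its values were seen.

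Next, each pseudogene was set beside its parent. A pseudogene's count was a small part of its parent's: over the 32 libraries the median share ran from 0.04% to 31.6% with a middle value of 0.24%, and 78 of the 97 were under 1%. These are shares of counts and not levels per length, and counts shared between copies and parent make them uncertain. The summed count of the 97 was 1.00% to 1.98% of the summed count of the 49 parents, with a median of 1.28%. The 16p11.2 libraries lay between 1.14% and 1.69% and 14 of the 3g libraries between 1.07% and 1.46%, so the ranges of the lines overlapped although both sums differed between them. In wt females alone the shares did not overlap, at 1.33% to 1.69% in the 16p11.2 and 1.09% to 1.21% in the 3g line. In del/+ females they did, at 1.26% to 1.47% and 1.07% to 1.46%, and so did those of males of either genotype. The highest share, 1.98%, was that of 3g del/+ male 25, the library with the fewest counts, and the lowest that of 3g wt male 17.

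In wt females 48 of the 68 tested pseudogenes had a larger log2 fold change between lines than their parent and 20 a smaller one, with a median difference of 0.24. In del/+ females 45 were larger and 21 smaller, with a median difference of 0.16. The filter on low counts favors pseudogenes that are high in the 16p11.2 line, so the excess over parents may follow in part from it. Under 10 counts in some 3g library were 17 of the tested pseudogenes in wt and 31 in del/+ females. Over the others the median log2 fold change was 0.838 in wt and 0.896 in del/+ females, but their comparison with parents was not made separately. The parent was called too for 40 of the 43 pseudogenes called in wt females and for all 42 in del/+ females, in either direction. Of the 79 ribosomal protein genes 94.9% were called in wt and 98.7% in del/+ females. A called parent was thus the rule for any pseudogene. The difference between a pseudogene and its parent was not tested gene by gene.

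**Figure D2:**
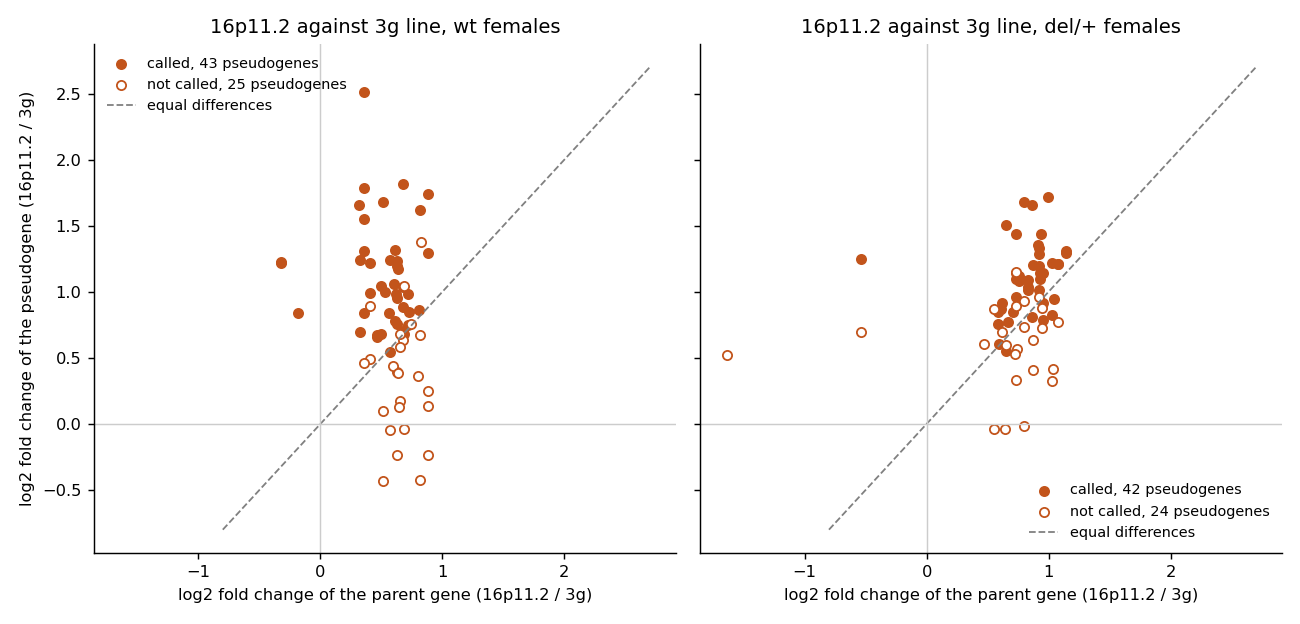
Log2 fold change between the 16p11.2 and 3g lines of each tested pseudogene (vertical axis) against that of its parent gene (horizontal axis), in wt females (left, 68 pseudogenes) and del/+ females (right, 66). Filled points were called by edgeR, 43 and 42 of them, and all called points lie above 0. The dashed line marks equal differences, and 48 and 45 points lie above it.

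Rps10-ps2 was called in the direction opposite to its parent in del/+ females. Rps10, a small-subunit gene, had 1.43 to 3.63 CPM where the middle parent had 146 CPM, and Rps10-ps1 and Rps10-ps2 had median shares of 31.6% and 28.7% of its count. Rps10-ps1 was named after its values were seen. In del/+ females the log2 fold change was -0.54 for Rps10 (adjusted p = 0.0102, edgeR) and 1.25 for Rps10-ps2 (adjusted p = 0.00148, edgeR). In wt females it was -0.32 for Rps10, not called, and 1.22 for Rps10-ps2, called. For Rps10-ps1 it was 0.70 in del/+ females, not called (adjusted p = 0.073, edgeR), and 1.22 in wt females, called. As a share of Rps10, Rps10-ps2 had a median of 15.5% in the 3g and 48.0% in the 16p11.2 libraries. The count of Rps10 was 35 to 181 a library, so these shares rest on few reads.

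In RefSeq 32 of the 97 lie over another gene by position, with strand and exons left out of account. Reads of that gene may count for them, depending on how strand was counted, which is not known. In wt females 16 of 23 tested pseudogenes over another gene and 27 of 45 others were called, with medians of 0.84 and 0.85. Rpl21-ps8, a copy of a large-subunit gene, lies within Mbp, the gene of myelin basic protein. It had 0.07 to 0.37 CPM in 15 of the 3g libraries and 0.51 CPM in 3g wt male 17, against 0.29 to 0.94 CPM in the 16p11.2 libraries. Mbp had 1849 to 3490 CPM in the same 15 libraries, 5813 CPM in 3g wt male 17, and 2547 CPM in 16p11.2 del/+ male 4 against 4456 to 7599 CPM in the other libraries of its line. Reads of Mbp and of Rpl21-ps8 cannot be told apart in these counts.

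One pseudogene had levels in 2 separate ranges. The rule asked for a gap of at least 2 between neighboring libraries on the scale log2(CPM + 0.1), with 2 or more libraries on each side and 10 or more counts in every library above it, and Rps13-ps1 met it with a gap of 2.46. The rule picked it by its values, so what follows is a description. In the 16p11.2 line Rps13-ps1 had 23.4, 20.7, 19.5 and 10.04 CPM in wt males and 22.1, 19.4, 17.03 and 13.02 CPM in wt females. The del/+ males had 11.8, 10.2, 3.05 and 0.36 CPM and the del/+ females 15.3, 11.7, 9.62 and 0.47 CPM. The values below the gap were those of del/+ male 3, on 11 counts, and del/+ female 4, on 17 counts.

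The 3g line showed no such spread. There 14 libraries lay between 4.79 and 6.03 CPM of Rps13-ps1, 3g del/+ male 25 had 8.35 CPM, and 3g wt male 17 had 17.03 CPM, within the range of the 16p11.2 wt libraries. The parent Rps13 did not follow, with 107 CPM in each of the 2 libraries where Rps13-ps1 was lowest and 73.5 to 123 CPM in the 16p11.2 wt libraries. Rps13-ps1 was 0.33% of the count of Rps13 in the lowest library and 24.2% in the highest.

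Another copy of the same parent ran the other way. Rps13-ps2 lies on chromosome 7 at 88530403 to 88530924. It had 0.08 to 0.16 CPM in the 6 libraries of 16p11.2 wt mice with 17.03 CPM or more of Rps13-ps1. It had 0.90 CPM in wt female 2 and 1.60 CPM in wt male 4, which were the lowest wt libraries for Rps13-ps1, and 2.58 and 2.14 CPM in del/+ male 3 and del/+ female 4. The other 6 del/+ libraries lay between 0.95 and 1.94 CPM. 3g wt male 17 had 0.08 CPM, and the other 3g libraries 0.25 to 1.75 CPM. Rps13-ps4, the last copy of this parent, had 0.27 to 1.03 CPM over all libraries with no such order.

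Of the 6 copies of Rps15a, 3 were low in the same libraries. Rps15a-ps7, on chromosome 2, had 0.32 and 0.53 CPM in 16p11.2 del/+ male 3 and del/+ female 4, 1.24 CPM in del/+ male 4, 3.56 to 5.63 CPM in the other del/+ libraries and 3.17 to 7.58 CPM in the wt libraries. It had a gap of 1.10 on the log2 scale and was named after its values were seen. Rps15a-ps8 had 0.03 and 0.06 CPM in the same pair, on 1 and 2 counts, 0.40 CPM in del/+ male 4, 1.501 to 2.71 CPM in the other del/+ libraries and 1.57 to 4.31 CPM in wt. Rps15a-ps6 also had its lowest del/+ male and female values there, at 1.26 and 1.61 CPM. The other 3 were at or under 0.86 CPM in every library, and none was the lowest of its group in both of these libraries. In del/+ male 3 and del/+ female 4, Rps15a-ps3 had 0.16 and 0.53 CPM, Rps15a-ps4 0.19 and 0.47 CPM, the latter the highest of the del/+ females, and Rps15a-ps5 0.29 and 0.22 CPM, the latter the lowest of the del/+ females.

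**Figure D3:**
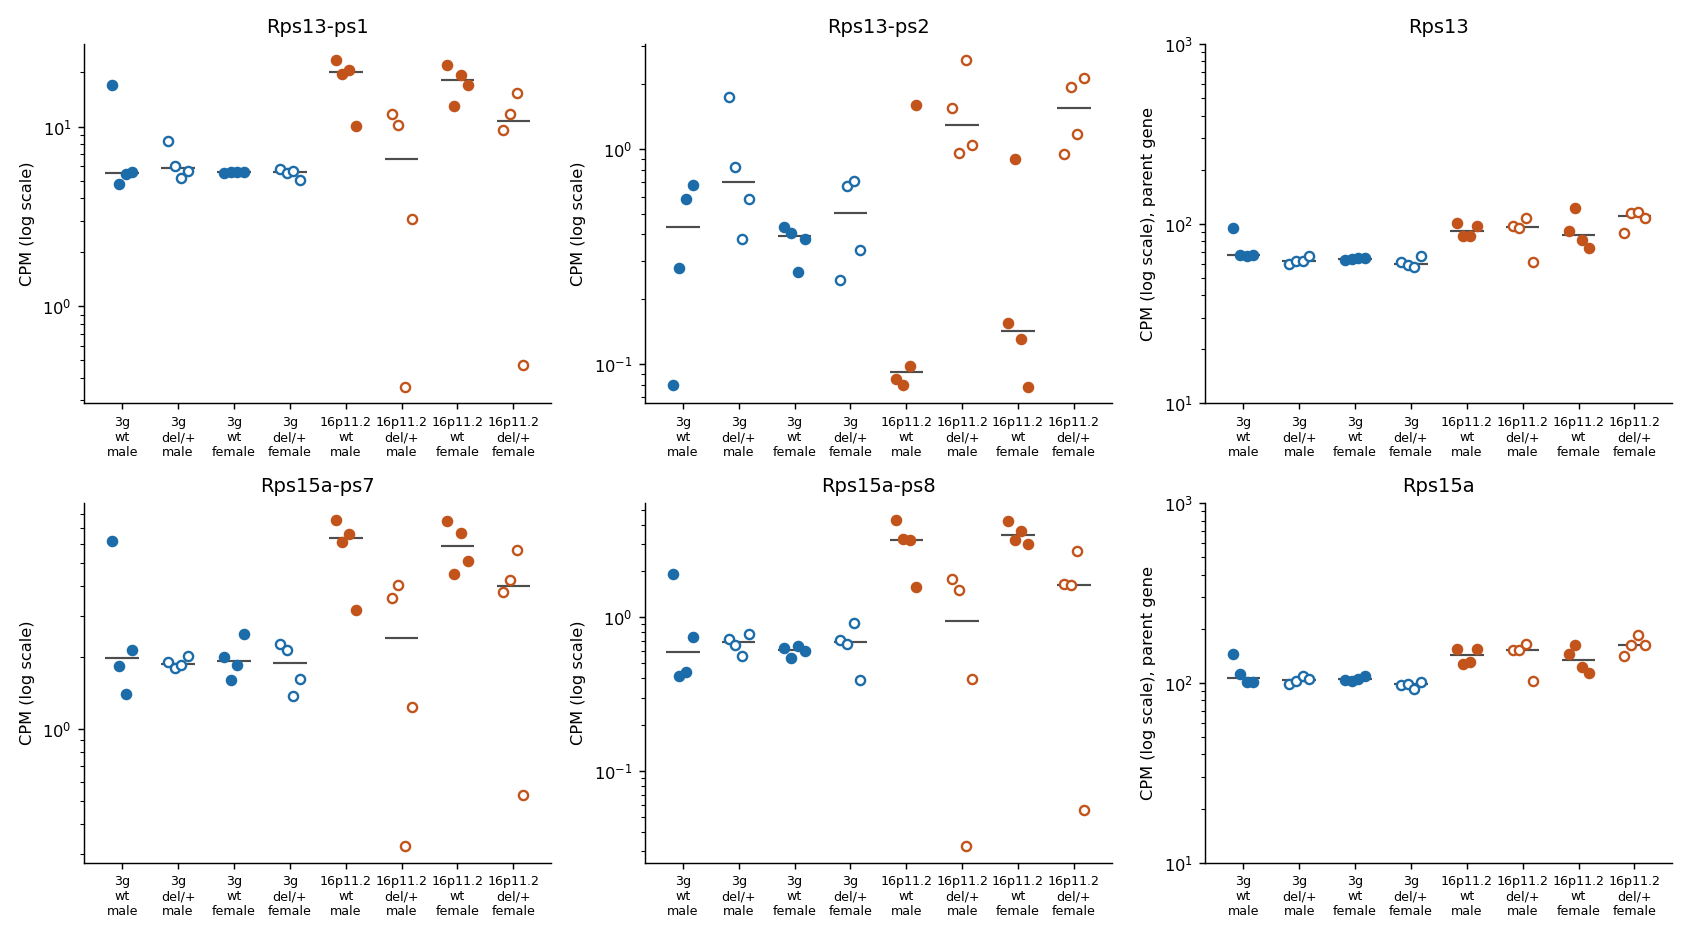
CPM on log axes of Rps13-ps1, Rps13-ps2 and their parent Rps13 (top) and of Rps15a-ps7, Rps15a-ps8 and their parent Rps15a (bottom) in each of the 32 RNA-seq libraries, by group. Filled points are wt, open points del/+, blue the 3g and orange the 16p11.2 line, and bars are medians of 4 libraries. Rps13-ps1 and both Rps15a copies fall lowest in 16p11.2 del/+ male 3 (0.36 CPM of Rps13-ps1) and del/+ female 4 (0.47 CPM), where Rps13-ps2 is highest (2.58 and 2.14 CPM), while Rps13 stays between 57.5 and 123 CPM and Rps15a between 92.8 and 185 CPM.

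By edgeR with all libraries and the filter, none of these differences was called by genotype. Rps13-ps1 had a log2 fold change, del/+ against wt, of -1.54 ± 0.68 (SE, adjusted p = 0.742, edgeR) in 16p11.2 males and -0.97 ± 0.57 (adjusted p = 0.998) in females, with groups that overlapped in both. Rps13-ps2 had 1.76 ± 0.84 (SE, adjusted p = 0.742, edgeR) in males and 2.44 ± 0.60 (adjusted p = 0.575) in females, and only the female groups did not overlap, as 2.91% of all genes in that comparison. In females it was called by DESeq2 (log2 fold change 2.37, adjusted p = 0.023) and by edgeR without the filter (2.45, adjusted p = 0.0176). By edgeR it was also called without wt male 4 in males (log2 fold change 4.08, adjusted p = 0.0155) and without wt female 2 in females (3.65, adjusted p = 0.00751), the wt libraries with the highest values. Rps13 and Rps15a both lie on chromosome 7, 10.5 and 8.76 Mb from Taok2, positions looked up after the values of their copies were seen. Of the 49 parents 8 lie on chromosome 7, the rest of them 81.2 Mb or more from Taok2. Rpl3, the parent of Rpl3-ps1, lies on chromosome 15. Whether position bears on the counts was not tested.

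Rpl3-ps1 did not meet the rule on gaps, with a gap of 1.21, and was low in other libraries. In the 16p11.2 line it had 6.47, 5.47, 5.42 and 25.1 CPM in the wt males and 44.1, 27.8, 24.9 and 15.1 CPM in the del/+ males. The wt females had 28.2, 32.5, 44.2 and 21.0 CPM and the del/+ females 24.8, 27.2, 32.3 and 45.6 CPM. In the 3g line 15 libraries lay between 16.2 and 20.3 CPM and 3g wt male 17 had 5.12 CPM. So the 4 lowest were 3 wt males of the 16p11.2 line and 1 labelled as a wt male of the 3g line.

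The parent Rpl3 ran in the other direction in these libraries. It had 670, 604 and 613 CPM in 16p11.2 wt males 1, 2 and 3 and 644 CPM in 3g wt male 17, the 4 highest values. In the 3 libraries with 44.1 CPM or more of Rpl3-ps1, 16p11.2 del/+ male 1, wt female 3 and del/+ female 4, Rpl3 had 375, 339 and 355 CPM. In the other 3g libraries it had 268 to 335 CPM. As a share of Rpl3, Rpl3-ps1 ran from 0.79% to 13.04%.

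**Figure D4:**
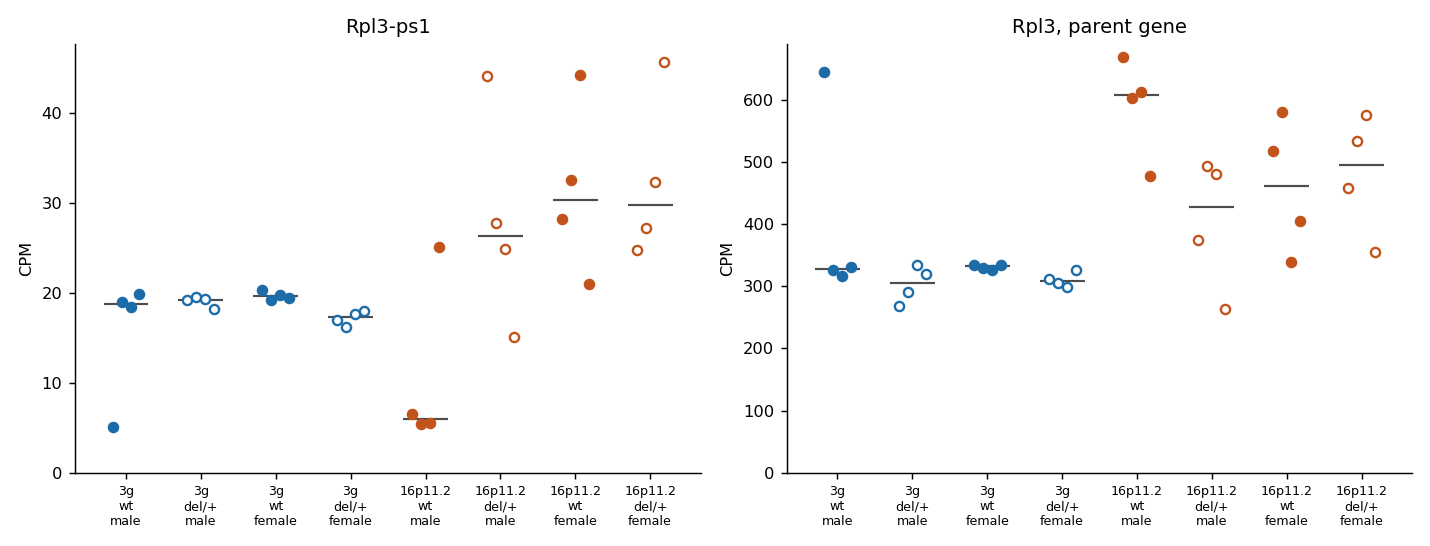
CPM of Rpl3-ps1 (left) and of its parent Rpl3 (right) in each of the 32 RNA-seq libraries, by group, on axes that start at 0. Filled points are wt, open points del/+, blue the 3g and orange the 16p11.2 line, and bars are medians of 4 libraries. The 3 low filled points of 16p11.2 wt males (5.42 to 6.47 CPM) and 3g wt male 17 (5.12 CPM) are lowest for Rpl3-ps1 and highest for Rpl3.

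By genotype, edgeR called 0 pseudogenes in either sex of either line. In the 3g line it tested 63 pseudogenes in males and 58 in females, where 0% and 0.00526% of all genes were called. In the 16p11.2 line it tested 71 and 75, where 0.106% and 0.144% were called. In that order, an unadjusted p under 0.05 was found by edgeR for 1, 6, 7 and 7 pseudogenes, and for 1.44%, 11%, 5.82% and 4.47% of all genes. DESeq2 called 0, 0, 0 and 1 of the 97, the last being Rps13-ps2, and 0.00279%, 0.301%, 0.106% and 0.143% of all genes. The median log2 fold change, del/+ against wt, was -0.08, 0.12, -0.27 and 0.16 over the pseudogenes tested, and -0.24, -0.11, -0.24 and 0.11 over the 79 ribosomal protein genes. The summed CPM of those 79 was 17653 in 3g wt male 17, against 9915 to 10356 in the other 3g wt males. It was 8904 in 16p11.2 del/+ male 4, against 15750 to 16319 in the other 16p11.2 del/+ males. The male medians of the 79 include these libraries and were not computed without them. Single libraries moved the medians of the pseudogenes. In 3g males the median was 0.11 without wt male 17 and -0.25 without del/+ male 25, and in 3g females it was 0.0048 without del/+ female 36 and 0.20 without del/+ female 37. In 16p11.2 males it was -0.09 without del/+ male 4 and -0.40 without del/+ male 3, and in 16p11.2 females 0.08 without del/+ female 3 and 0.27 without wt female 2.

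Rpl3-ps1 had 16.2 to 18.0 CPM in 3g del/+ females and 19.2 to 20.3 CPM in wt females, groups that did not overlap, as 5.66% of all genes there, with a log2 fold change of -0.20 ± 0.05 (SE, adjusted p = 0.236, edgeR). In 16p11.2 males its log2 fold change was 1.40 ± 0.51 (SE, adjusted p = 0.742, edgeR), and 2.27 (adjusted p = 0.0345) without wt male 4. The difference of the genotype effect between sexes was called for 0 of 72 pseudogenes in the 3g and 0 of 85 in the 16p11.2 line by edgeR, with 0% of all genes called in both. Sex was taken from the labels throughout, so 16p11.2 del/+ female 1, with 0.46 CPM of Xist and 38.5 CPM of Ddx3y, entered as a female. An unadjusted p under 0.05 was found for 0 and 10 pseudogenes, and for 2.69% and 4.33% of all genes. DESeq2 called 0 of the 97 in both lines, where it called 0% and 0.00805% of all genes.

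Only 3 of the 97 were listed in the tables of lysate RNA and footprints, Rpl9-ps6, Rpl10-ps3 and Rpl36a-ps1, all copies of large-subunit genes. There they were read at the level of their parents. In the 13 lysate RNA libraries Rpl9-ps6 had 1285 to 1871 counts, or 136% to 164% of the count of Rpl9, against 0.45% to 1.98% in the 32 RNA-seq libraries. Rpl10-ps3 had 114% to 135% of Rpl10 in lysate RNA against 0.14% to 1.35%, and Rpl36a-ps1 had 90.9% to 118% of Rpl36a against 0.24% to 1.10%. For each of the 3 the ranges did not overlap. The lysate tables were made with Bowtie2 on mm39 and the RNA-seq tables with HTSeq on mm10, and the libraries are other mice, so the processing and the samples cannot be told apart here.

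**Figure D5:**
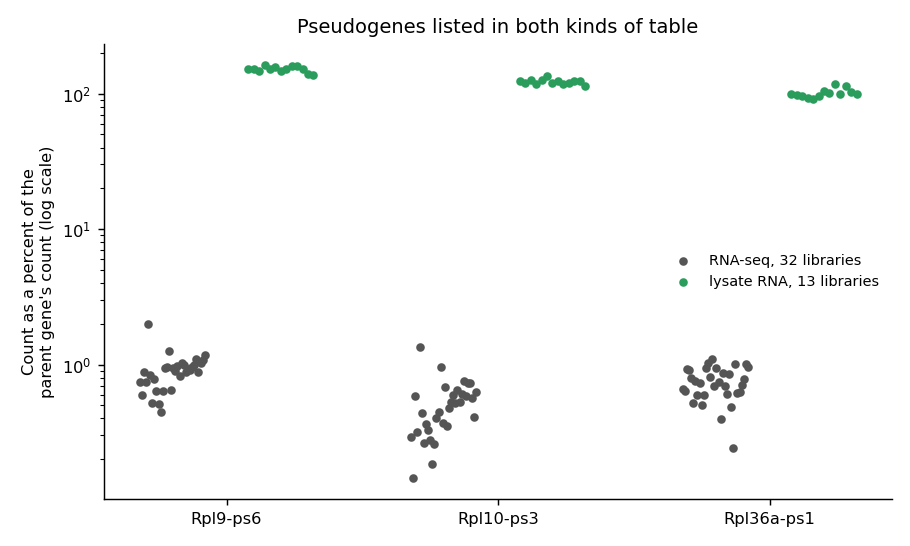
Count of Rpl9-ps6, Rpl10-ps3 and Rpl36a-ps1 as a percent of the parent gene's count, on a log axis, in the 32 RNA-seq libraries (gray) and the 13 lysate RNA libraries (green). Each point is a library. The RNA-seq points lie between 0.14% and 1.98% and the lysate points between 90.9% and 164%.

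The footprint libraries held 342052 to 678130 counts and gave these 3 only 0 to 16 counts each, too few for a comparison. Rpl9-ps6 had 2 to 16 footprint counts, Rpl10-ps3 0 to 9 and Rpl36a-ps1 1 to 6. In lysate RNA edgeR and DESeq2 called 0 of the 3 by genotype in the 3g line, by genotype in the 16p11.2 line, or between the wt mice of the lines, where edgeR called 0.0209%, 0.133% and 0.0139% and DESeq2 0.0711%, 0.175% and 0.886% of all genes. None had an unadjusted p under 0.05 by edgeR, as 4.92%, 4.41% and 10.8% of all genes had. Between the wt mice of the lines their log2 fold changes were 0.11 to 0.19, with a smallest adjusted p of 0.658 (edgeR), where the RNA-seq of wt males gave 0.88 for Rpl9-ps6.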

How the data were processed

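The members and gene lists were chosen with earlier results of these data known. The authors made the RNA-seq tables with the bcbio-nextgen pipeline from Ribo-Zero stranded libraries (the labels say polyA RNA) and deposited counts per gene, without normalization. The submitters' processing notes name HTSeq and mm10, and Bowtie2 and mm39 for lysate RNA and footprints. How reads matching several places, or strand, were counted is not given in the sources used here. Positions come from RefSeq (GRCm38.p6), matched by symbol for 97 of 97. CPM were scaled by TMM over the 32 libraries. Comparisons used edgeR 4.0.16 (filterByExpr, TMM, quasi-likelihood test) on the 8 libraries of each comparison, with DESeq2 1.42.0 as an alternative, and were tested on simulated data. No 2 RNA-seq libraries were identical. The study's methods count 4 males and 4 females per genotype and line, so RNA-seq libraries of a group were taken as separate mice. Genes named by rule are the member in 2 ranges, the 6 with the highest median CPM, and Rpl3-ps1. In each RNA-seq comparison they are also the 5 called members with the largest log2 fold change and groups that do not overlap. Some others were named after their values were seen, as the text says, and the remaining Rps13 and Rps15a copies complete those families. Rpl38-ps2, Rps19-ps3, Rps12-ps1 and Rpl10-ps6 are examples of levels or of the count rule, also picked with their values seen. Rpl34-ps1 and Rpl31-ps12 are named for their RefSeq class, and Rpl10-ps3 and Rpl36a-ps1 for being listed in lysate RNA. Replicate numbers shared in the 16p11.2 line were checked for pairing. No sequence is printed.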

Additional observations from a re-analysis of the deposited data

Results flagged for a closer look

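Of 18 named pseudogenes and 2 sums over the list, tested in 8 groups of 4 libraries (160 tests), 14 had a library whose gap to the rest of its group passed Dixon's 95% critical value for 4 values. Chance alone flags about 1 in 20 groups. In 3g wt male 17 these were Rps13-ps1 at 17.03 CPM (other wt males 4.79 to 5.55), Rps15a-ps6 at 3.68 CPM (0.998 to 1.19) and Rpl3-ps1 at 5.12 CPM (18.4 to 19.9). In 16p11.2 del/+ male 4 they were Rps15-ps2 at 0.40 CPM (other del/+ males 0.94 to 1.00), Rpl9-ps6 at 2.01 CPM (3.94 to 4.33) and Rpl10a-ps1 at 2.26 CPM (3.89 to 4.18). In 3g del/+ male 25 it was Rpl31-ps8 at 9.39 CPM (2.34 to 3.07).

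Among the 16p11.2 wt mice, wt male 4 stood apart for Rps13-ps2 at 1.60 CPM (other wt males 0.08 to 0.10) and Rpl3-ps1 at 25.1 CPM (5.42 to 6.47). Wt female 2 stood apart for Rps13-ps2 at 0.90 CPM (other wt females 0.08 to 0.16), Rpsa-ps9 at 0.86 CPM (0.55 to 0.57) and Rpl31-ps8 at 7.45 CPM (4.94 to 5.22), and wt female 1 for Rps15a-ps6 at 3.93 CPM (3.23 to 3.25). The library labelled as del/+ female 1 of this line stood apart for Rpl39-ps at 1.25 CPM (other del/+ females 1.89 to 1.97).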

How the results depend on the processing

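Counts of called pseudogenes by genotype remained 0 in the 3g line under every alternative run. In 16p11.2 males the count was 0 to 2 with each library left out (2 without wt male 4), and in 16p11.2 females 0 to 1 (1 without wt female 2), with 1 by DESeq2 and 1 without the filter on low counts. With the replicate number as a block (replicate block) the count of 0 in 16p11.2 males and in females stayed 0. Numbers shared there did not pair the samples, since the correlations of same-numbered libraries ran from -0.256 to 0.107 and 1 of 8 correlated best with its own number.

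Between lines, the female counts stayed within 1.5 times, at 39 to 50 in wt and 33 to 46 in del/+ females with each library left out. Without 16p11.2 wt female 2, 38 of the 39 were higher and 1 lower. In wt males the count of 0 became 25 by DESeq2, 10 without the filter, 40 with all 32 libraries in 1 fit, and 0 to 45 with each library left out. In del/+ males the count of 4 became 12 in that fit and 0 to 26 with each library left out. Only 1 pseudogene had levels in 2 ranges at the chosen gap, 3 at a gap of 1, 0 at a gap of 3 and 0 with a pseudocount of 0.5. With each library left out it was 0 to 1, with 0 without 16p11.2 del/+ male 3 or del/+ female 4, by construction, as 1 library is then left below the gap. The lysate and interaction counts were 0 throughout. Of 15 called differences between lines of named pseudogenes, all kept their direction under 180 alternatives, and 23 lost the call, 22 of them in del/+ males. Depth is a limit too, since 74 of the 97 were under 10 counts in some library.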
